A study of Ovis aries with 30 samples.

Results

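CIRBP (cold-inducible RNA-binding protein) and RBM3 (RNA-binding motif protein 3) were followed in brown adipose tissue (BAT) and thyroid of newborn Romney lambs kept in the cold or at ambient temperature. Both genes were picked by name, as the 2 entries of the deposited count table listed under these symbols, out of 28524 genes. Each was measured in all 30 libraries, and both passed the filter on low counts in both tissues.

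The 15 lambs were born outdoors as twins, 1 lamb per dam was sampled, and each lamb gave 1 library from the BAT around the kidneys and 1 from the thyroid. The "cold" lambs (n = 6) were held indoors with their dams at 4 °C for 2 days. The "AT" lambs (n = 6) were held in the same way at an ambient 20–22 °C for 2 days. The 3 controls were sampled as a baseline at about 24 h after birth, soon after being brought indoors, so that they were about 2 days younger than the treated lambs and never kept in the pens. Age, housing and treatment therefore cannot be told apart in any comparison with the controls, and only cold against AT compares temperatures at 1 age. Both sexes were used in every group, but the labels do not give the sex of a library. The study kept Controls 1 and 3 and left out Control 2 from its comparisons. The same was done here, and values with Control 2 are given beside several of the results.

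CIRBP and RBM3 are small glycine-rich proteins that each carry a single RNA recognition motif at the amino-terminal end. They are the best known proteins whose synthesis rises in mammalian cells when the temperature is lowered mildly, whereas heat lowers their transcripts. Both bind messenger RNAs and act on their stability, polyadenylation and translation, and CIRBP also moves to the cytoplasm under stress and can act outside the cell as an inflammatory signal. Control of both genes includes alternative splicing that depends on temperature, in which unproductive transcripts are removed by nonsense-mediated decay. BAT is the tissue that newborn lambs use to make heat without shivering, and thyroid hormone is needed for that function.

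In the annotation of the deposited table (Oar_rambouillet_v1.0), CIRBP lies on chromosome 5 from 45816012 to 45820959 on the plus strand, in 9 exonic blocks with a summed length of 2678 bases. RBM3 lies on chromosome X from 58810461 to 58814319 on the minus strand, in 7 exonic blocks with a summed length of 1283 bases. Neither gene shared an exonic base with another gene of the table. The nearest neighbour of CIRBP was C5H19orf24, at 507 bases, and that of RBM3 was TBC1D25, at 11011 bases. The authors' counting kept multimapping reads, so reads from processed copies of either gene elsewhere in the genome could not be separated from its own.

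Assigned reads came to 31556500–37025998 per BAT library and 25062784–30124871 per thyroid library. In BAT, 43.8–76.5% of these fell on the unnamed pair LOC114112617 and LOC114115287, against 5.18–27.8% in thyroid. Levels in CPM are reads scaled to a common library total, and for all marker genes that total leaves out this pair. The thyroid follicular cell markers (9 genes, among them TG) summed to 38242–164693 CPM in thyroid and to 19.1–275 CPM in BAT. Of these, SLC26A4 had at most 3 reads in any thyroid library. DIO1, of the same list, went the other way, at 6.85–222 CPM in BAT and 0.387–5.77 CPM in thyroid. The adipocyte markers (6 genes) summed to 2862–14747 CPM in BAT, and the brown adipocyte markers found in the table (4 of 5) to 63.1–4852 CPM. Skeletal muscle markers (7 genes) set 2 thyroid libraries apart. They summed to 93379 CPM in AT 3 and 9786 CPM in Control 1, against at most 152 CPM in the other 13. Of the parathyroid and C cell markers (5 genes), PTH, GCM2 and CHGA set the thyroid of Control 2 apart. They stood there at 253, 24.3 and 1474 CPM, against at most 5.14, 0.562 and 67.3 CPM in any other thyroid library. CASR and CALCA did not set it apart. The part of such transcripts in the thyroid values with Control 2 was not tested. These are bulk tissues, in which fewer cells of a type and less RNA per cell cannot be told apart.

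Read counts were ample for both genes. CIRBP had 595–3731 reads per library in BAT and 6291–15291 in thyroid, and RBM3 had 548–2127 and 3177–6845. The lowest CIRBP count in BAT and the lowest RBM3 count in thyroid were both those of Control 2. Within each tissue, counts were scaled by size factors from the reference genes ACTB, RPL19 and HUWE1, as the study did, and the result is called the normalized count below. None of the 3 reference genes was called in any comparison within a tissue, and their log2 fold changes ran from −0.67 for ACTB (edgeR, adjusted p = 0.0611) to 0.31 for RPL19 (adjusted p = 0.311), both in BAT of AT lambs against control. The size factors come from these same genes, so their own tests cannot show whether they were stable. Per kilobase of exon, both genes were among the more abundant transcripts. CIRBP exceeded 93.4% of the tested genes in BAT and 97.9% in thyroid, and RBM3 exceeded 94.5% and 97.5%.

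**Figure D1:**
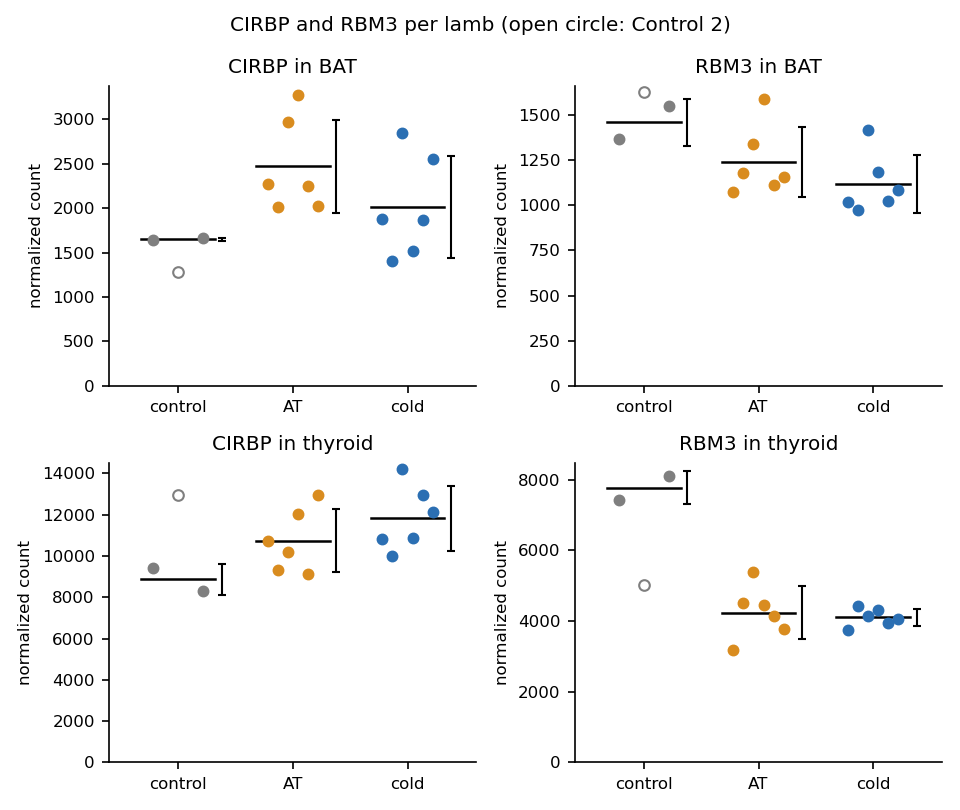
Normalized counts (y axis, starting at 0) of CIRBP and RBM3 in each lamb, by tissue and group, with 1 point per library. Lines and brackets give the mean and SD of each group without Control 2 (open circles). In thyroid, RBM3 lies at 7433 and 8093 in Controls 1 and 3 and at 3181–5374 in the 12 treated lambs.

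The temperature comparison of most direct interest for these genes is cold against AT. No difference between lambs at 4 °C and lambs at 20–22 °C passed the test for either gene in either tissue, and the groups overlapped for each gene in each tissue. In BAT, the normalized count of CIRBP in cold lambs was 1409.6 at the lowest, 1873 at the median and 2842 at the highest, with a mean of 2010.2 ± 569.8 (SD, n = 6). In AT lambs it was 2017 at the lowest, 2261 at the median and 3273 at the highest, with a mean of 2468 ± 527 (SD, n = 6). Of the 6 cold lambs, 4 lay below the AT mean. The log2 fold change of cold against AT was −0.30 ± 0.20 (SE, 95% interval −0.71 to 0.12, edgeR quasi-likelihood test, 2-sided, adjusted p = 0.542).

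RBM3 in BAT was closer between the temperatures. Its normalized count in cold lambs ran from 976 through a median of 1055 to 1414, with a mean of 1117 ± 162 (SD, n = 6). In AT lambs it ran from 1071 through a median of 1167 to 1588, with a mean of 1240.1 ± 193 (SD, n = 6). In 5 of the 6 cold lambs RBM3 lay below the AT mean. The log2 fold change was −0.15 ± 0.14 (SE, 95% interval −0.45 to 0.15, edgeR, adjusted p = 0.671).

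In thyroid the intervals were narrower. CIRBP had 9976, 11498 and 14217 normalized counts at the lowest, median and highest cold lamb, and 9102, 10478.5 and 12966 at the lowest, median and highest AT lamb. Its log2 fold change of cold against AT was 0.14 ± 0.12 (SE, 95% interval −0.12 to 0.40, edgeR, adjusted p = 0.932). RBM3 had 3746, 4106 and 4413 normalized counts in cold lambs and 3181, 4288 and 5374 in AT lambs, in the same order. Its log2 fold change was −0.04 ± 0.12 (SE, 95% interval −0.29 to 0.20, edgeR, adjusted p = 0.977). The RBM3 values of the cold lambs lay within the range of the AT lambs, which was wide at its upper end through AT 3, the thyroid library with muscle transcripts. Without AT 3 the difference turned to 0.031 (edgeR, adjusted p = 0.979) and the highest AT value was 4505.

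These 4 differences stand against few calls in the whole table. By the adjusted p alone, cold and AT differed for 46 of 14905 genes tested in BAT (0.309%) and for 0 of 16122 in thyroid (0%), where 870 genes had an unadjusted p under 0.05 and DESeq2 called 4. The BAT count varied, at 261 with DESeq2, 95 with TMM scaling, 182 without AT 6, and 0 without AT 5, without cold 4 or with all 3 controls. In exact permutation tests of the difference of mean log2 normalized counts (2-sided, unadjusted, 12 such tests in all), cold against AT gave p = 0.147 for CIRBP and 0.238 for RBM3 in BAT, and 0.251 and 0.797 in thyroid. The smallest p that 6 against 6 lambs allow is 0.0022. Read as bounds, the 95% intervals reached 1.08-fold higher CIRBP and 1.11-fold higher RBM3 in the BAT of cold lambs, and 1.32-fold and 1.15-fold higher in their thyroids.

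**Figure D2:**
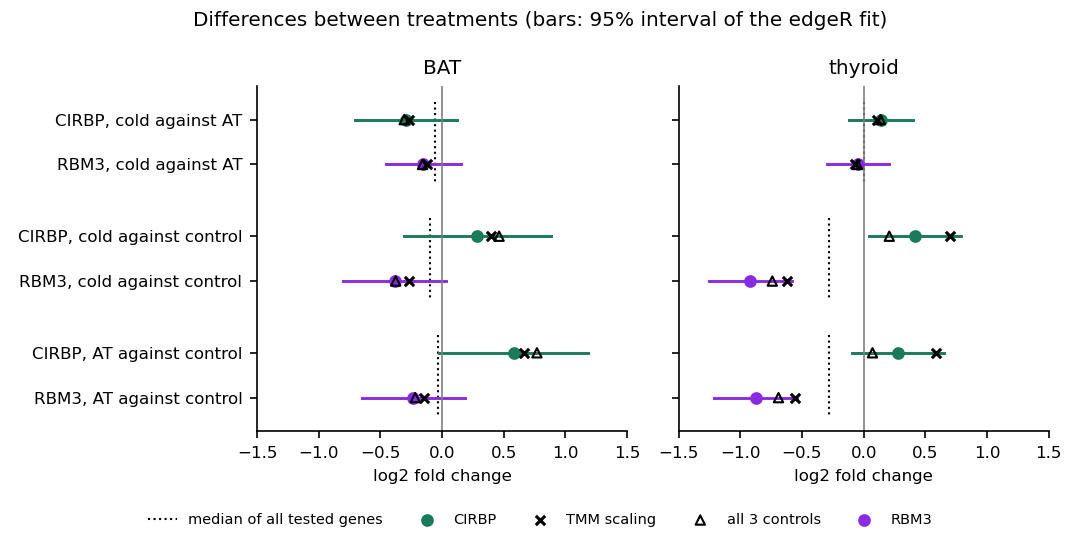
Log2 fold changes (x axis) of CIRBP and RBM3 in the 3 comparisons within each tissue, as points with 95% intervals from the edgeR fits on 2 controls, with crosses for TMM scaling, triangles for all 3 controls and dotted lines at the median of all tested genes. The intervals of both cold-against-AT comparisons include 0 in each tissue, and those of RBM3 in thyroid against control run from −1.25 to −0.58 in cold lambs and from −1.21 to −0.54 in AT lambs.

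Against the controls, RBM3 fell in the thyroid of both treated groups, to 0.529 of the control level in cold lambs and 0.546 in AT lambs. The normalized count of RBM3 was 7433 in Control 1 and 8093 in Control 3, whereas the highest of the 6 cold lambs had 4413 and the highest of the 6 AT lambs had 5374. The groups did not overlap. The log2 fold change was −0.92 ± 0.16 in cold lambs (SE, edgeR, adjusted p = 0.0029) and −0.87 ± 0.16 in AT lambs (SE, edgeR, adjusted p = 0.00292). Both comparisons use the same 2 controls. RBM3 ranked 188 of 16122 genes by p in the first and 323 in the second, and did not reach the fold threshold of the study (a log2 fold change of at least 1 in size).

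This change of RBM3 has to be read against many others in the same direction. Of all genes tested in thyroid, 16.9% were called lower in cold lambs and 18.7% in AT lambs, and 28.5% and 21.7% had treated values that all lay below the controls. Genes called in either direction numbered 3110 and 3382, against 1430 and 1408 with TMM scaling and 91 and 102 without Control 3, and the second was 5288 without AT 3. The median log2 fold change over all genes was −0.28 in both comparisons, and relative to that median RBM3 stood at −0.63 in cold and −0.59 in AT lambs. With TMM scaling, where the median over all genes was 0.02 and 0.05, the log2 fold changes of RBM3 were −0.63 (edgeR, adjusted p = 0.0127) and −0.56 (adjusted p = 0.0212).

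The controls bear on this result. Control 2 had 5024 normalized counts of RBM3 in thyroid, above all 6 cold lambs and below AT 3. With all 3 controls the log2 fold changes were −0.74 (edgeR, adjusted p = 0.00961) and −0.69 (adjusted p = 0.0143). Without Control 3, where Control 1 stood alone and was assumed to vary like the other groups, they were −0.84 (edgeR, adjusted p = 0.0861) and −0.80 (adjusted p = 0.0997). Exact permutation tests gave p = 0.0357 in both comparisons, the smallest that 6 against 2 lambs allow, and 0.0119 for cold and 0.0238 for AT with all 3 controls.

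Other transcripts moved with the groups in these thyroids. Fibroblast markers (4 genes) summed to 179–607 CPM in the 3 controls, 717–3279 CPM in cold lambs and 903–2414 CPM in AT lambs, and their part in the RBM3 result was not tested. Without AT 3 the RBM3 log2 fold changes were −0.93 in cold and −0.96 in AT lambs, and without Control 1 they were −0.98 and −0.94, where the latter rest on Control 3 alone.

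CIRBP did not share this pattern in thyroid. It had 9400.1 normalized counts in Control 1 and 8322 in Control 3, below all 6 cold lambs and overlapping the AT lambs, while Control 2 had 12965. Its log2 fold change was 0.42 ± 0.18 in cold lambs (SE, 95% interval 0.04 to 0.79, edgeR, adjusted p = 0.105) and 0.28 ± 0.17 in AT lambs (SE, edgeR, adjusted p = 0.266). Of all genes, 6.18% had cold values that all lay above both controls. The call in cold lambs depended on the scaling, since TMM gave 0.70 (edgeR, adjusted p = 0.0379) and DESeq2's median-of-ratios factors gave 0.70 (adjusted p = 0.0375). It also depended on the controls, since with all 3 of them the value came to 0.21 (edgeR, adjusted p = 0.443) and the groups overlapped. In AT lambs the value ran from 0.07 with all 3 controls (edgeR, adjusted p = 0.812) to 0.59 with TMM scaling (edgeR, adjusted p = 0.0677). The exact permutation test in cold lambs gave p = 0.0714, and 0.214 with all 3 controls.

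In BAT neither gene passed the test against the controls. RBM3 had 1368 normalized counts in Control 1, 1549 in Control 3 and 1626 in Control 2, against the means of 1117 in cold and 1240.1 in AT lambs given above. Its log2 fold change was −0.38 ± 0.20 in cold lambs (SE, 95% interval −0.80 to 0.03, edgeR, adjusted p = 0.317) and −0.23 ± 0.20 in AT lambs (SE, edgeR, adjusted p = 0.485). The highest treated lambs overlapped the controls in both comparisons. Exact permutation tests gave p = 0.0714 in cold and 0.25 in AT lambs, and 0.0238 and 0.0833 with all 3 controls.

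CIRBP in BAT had 1635 normalized counts in Control 1, 1662 in Control 3 and 1280.1 in Control 2. All 6 AT lambs lay above all 3 controls, while the cold lambs overlapped them. The log2 fold change was 0.29 ± 0.28 in cold lambs (SE, edgeR, adjusted p = 0.634) and 0.58 ± 0.29 in AT lambs (SE, 95% interval −0.02 to 1.19, edgeR, adjusted p = 0.209). With all 3 controls the AT value came to 0.77 (edgeR, adjusted p = 0.062). In exact permutation tests, the AT comparison gave p = 0.0714, and 0.0119 with all 3 controls. Called genes made up 1.48% of those tested for cold (221) and 9.3% for AT against control (1386). These counts were 0 and 124 without Control 1 and 19 and 77 without Control 3. Of all genes, 8.96% had AT values that all lay above both controls. The sum of the brown adipocyte markers also moved with the groups in BAT, from a median of 1955 CPM in the 3 controls to 872 CPM in cold and 527 CPM in AT lambs. Most of the sum in the controls was UCP1, at 1625 CPM in Control 1, 1627 in Control 3 and 4640 in Control 2. UCP1 stood at 270–833 CPM in cold and 19.6–1106 CPM in AT lambs. The study reported no significant difference of UCP1 in any of its comparisons. CIDEA did not follow UCP1, at 44.9–154 CPM in controls, 72.4–183 in cold and 24.6–317 in AT lambs. In the same order, PPARGC1A stood at 47.2–119, 32.7–99.9 and 12.3–56.3 CPM, and ADRB3 at 32.7–72.6, 15.1–33.0 and 6.7–53.2. The part of these markers in the values of CIRBP and RBM3 was not tested.

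The balance between the paralogues was read within each library as the RBM3 count over the CIRBP count, a quantity that no scaling of the library can alter. In BAT the ratio was 0.836 in Control 1 and 0.931 in Control 3. It ran from 0.426 through a median of 0.546 to 0.781 in cold lambs, and from 0.450 through a median of 0.489 to 0.585 in AT lambs. In thyroid it was 0.791 in Control 1 and 0.973 in Control 3, against 0.292, 0.341 and 0.442 in cold lambs and 0.291, 0.412 and 0.526 in AT lambs at the lowest, median and highest. All 12 treated lambs therefore had less RBM3 per CIRBP than both controls in each tissue, and cold and AT lambs overlapped.

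On the log2 scale, the mean ratio in BAT minus that of the controls was −0.63 ± 0.24 (SE) in cold and −0.80 ± 0.12 in AT lambs. In thyroid the differences were −1.33 ± 0.18 in cold and −1.16 ± 0.28 in AT lambs. Cold and AT differed by 0.17 ± 0.14 in BAT and −0.17 ± 0.18 in thyroid. Such a lack of overlap with the controls was common when other genes were divided by CIRBP in the same way. It was found, in the lower direction, for 19.7% of genes in cold and 46.4% in AT lambs in BAT, and for 48.3% and 30.3% in thyroid, and no p is given for the ratio. Control 2 stood apart in opposite directions in its 2 tissues, with 1.27 in BAT and 0.388 in thyroid. With it the differences from control were −0.81 and −0.98 in BAT, still without overlap, and −0.94 and −0.77 in thyroid, with overlap.

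**Figure D3:**
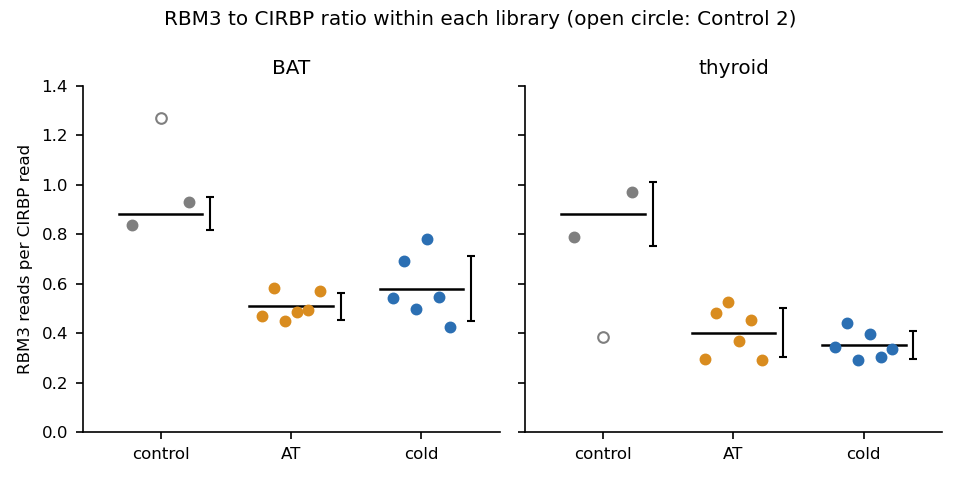
RBM3 count divided by CIRBP count in the same library (y axis, starting at 0), with 1 point per lamb, by tissue and group, and lines and brackets for the mean and SD without Control 2. Controls 1 and 3 lie between 0.791 and 0.973 in both tissues, above every treated lamb, and Control 2 lies at 1.27 in BAT and 0.388 in thyroid.

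To compare the tissues, the counts of both were scaled by 1 set of reference-gene size factors and divided by the exonic length, giving normalized reads per kilobase. Both genes were lower in BAT than in the thyroid of the same lamb in 15 of 15 lambs. For CIRBP, the level in BAT as a share of that in thyroid ran from 0.249 through a median of 0.486 to 0.766, and for RBM3 from 0.466 through a median of 0.686 to 0.992. The ratio of BAT to thyroid was thus closer to 1 for RBM3 at the median.

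CIRBP stood, in reads per kilobase, at 2633 ± 350.1 in the thyroid of cold lambs (SD, n = 6), 2384 ± 327 in that of AT lambs and 1994 ± 104 in that of Controls 1 and 3. In BAT it stood at 1466 ± 350.2 in AT lambs, 1157 ± 310.3 in cold lambs and 926 ± 10.8 in the controls. Neighbours in this order overlapped between the 2 treated groups of each tissue, between AT lambs and controls in thyroid, between controls in thyroid and AT lambs in BAT, and between cold lambs and controls in BAT. Cold lambs and controls in thyroid, which are not neighbours, did not overlap.

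RBM3 stood at 3656 ± 344 reads per kilobase in the thyroid of Controls 1 and 3 (SD, n = 2), apart from all other groups. The thyroids of AT lambs (1968 ± 372) and cold lambs (1908 ± 128) came next, followed by BAT of controls (1709.7 ± 149.8), AT lambs (1535 ± 274) and cold lambs (1347 ± 185), and each of these overlapped its neighbour. Per kilobase, RBM3 exceeded CIRBP in Controls 1 and 3, at a mean of 1.85 times in BAT and 1.84 times in thyroid. In Control 2, RBM3 stood at 2.65 times CIRBP in BAT but at 0.809 times in thyroid. In the treated lambs it was 1.21 times CIRBP in cold and 1.06 times in AT lambs in BAT, and 0.736 and 0.842 times in thyroid.

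In 1 edgeR fit over both tissues, CIRBP was lower in BAT than in thyroid, with a log2 fold change of −1.19 ± 0.16 in cold lambs (SE, edgeR, adjusted p = 4.8e-07), −0.73 ± 0.16 in AT lambs (edgeR, adjusted p = 0.000331) and −1.08 ± 0.28 in controls (edgeR, adjusted p = 0.0034). RBM3 was lower as well, with −0.51 ± 0.13 in cold lambs (SE, edgeR, adjusted p = 0.00125), −0.38 ± 0.13 in AT lambs (edgeR, adjusted p = 0.0111) and −1.07 ± 0.22 in controls (edgeR, adjusted p = 0.000453). This fit took both libraries of a lamb as independent. Both genes were called in all 3 groups, and so were 63.5%, 63.8% and 36.4% of all genes in cold, AT and control lambs. The median over all genes was 0.33, 0.35 and 0.06, so both genes went against the direction of the middle gene. The call of RBM3 in AT lambs was lost without AT 2 (edgeR, adjusted p = 0.0573), and that of CIRBP in controls was lost without Control 1 (edgeR, adjusted p = 0.0825) or Control 3 (edgeR, adjusted p = 0.0506).

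**Figure D4:**
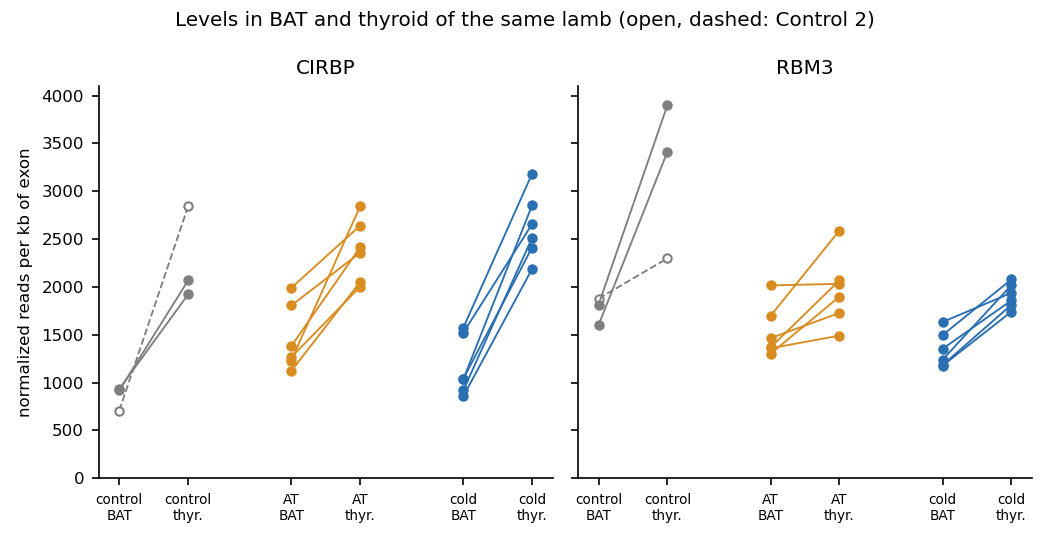
Normalized reads per kilobase of exon (y axis, starting at 0) of CIRBP and RBM3 in BAT and thyroid, with a line joining the 2 tissues of each lamb (open and dashed for Control 2) and colours for the groups. The line goes up from BAT to thyroid in 15 of 15 lambs for both genes, and RBM3 in thyroid is highest in Controls 1 and 3.

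Whether the change against control differed between the tissues was tested directly. No difference between BAT and thyroid passed the test for either gene. For RBM3 the difference of the log2 fold changes (BAT minus thyroid) was 0.56 ± 0.26 for cold against control (SE, edgeR, adjusted p = 0.3901) and 0.69 ± 0.26 for AT against control (SE, edgeR, adjusted p = 0.155). For CIRBP it came to −0.11 (edgeR, adjusted p = 0.927) and 0.36 (adjusted p = 0.586), and the first of these turned to 0.23 with all 3 controls (edgeR, adjusted p = 0.779). The fall of RBM3 in thyroid was therefore not shown to differ from its change in BAT. For cold against AT the difference was −0.47 ± 0.23 for CIRBP (SE, edgeR, adjusted p = 0.635) and −0.12 for RBM3 (edgeR, adjusted p = 0.920). The share of all genes called was 0.188% for cold against control, 1.66% for AT against control and 0% for cold against AT, where 1339 of 17021 genes had an unadjusted p under 0.05 and TMM scaling called 6.

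Variation between lambs of 1 group was smaller for RBM3 than for CIRBP in BAT, and closer between the genes in thyroid. The biological coefficient of variation fitted by edgeR was 0.250 for CIRBP in BAT and 0.213 in thyroid, with 42.7% and 25.7% of tested genes below it. For RBM3 it was 0.192 in BAT and 0.194 in thyroid, with 8.29% and 15.0% of genes below it. Among the 1000 genes closest in level, 46.5% in BAT and 30.6% in thyroid lay below CIRBP, and 8.3% and 22.3% below RBM3. The 6 cold thyroids were the most even group for RBM3, with a coefficient of variation of normalized counts of 5.92%, against 17.5% in AT lambs and 13.6% in AT lambs without AT 3.

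Across the 12 treated lambs the 2 genes were compared on TMM-scaled log2 CPM, with controls left out for their age. In BAT, CIRBP and RBM3 had Pearson's r = 0.67 (permutation p = 0.0169, adjusted p = 0.0675 over 4 relations) and Spearman's rho = 0.73 (permutation p = 0.00841, adjusted p = 0.0336). Within groups r was 0.62 in cold and 0.71 in AT lambs. Without the 2 lambs farthest from the CIRBP median r was 0.77 (permutation, adjusted p = 0.0388), and without AT 3 it was 0.55 (permutation, adjusted p = 0.158). The lambs with high CIRBP in BAT thus tended to have high RBM3, but Pearson's r passed the adjusted threshold only in part of these settings.

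In thyroid the sign was the opposite, with r = −0.57 (permutation p = 0.0506, adjusted p = 0.101) and rho = −0.66 (permutation p = 0.0239, adjusted p = 0.0479). Within groups r was −0.18 in cold and −0.76 in AT lambs. Without the 2 lambs farthest from the median it was −0.69 (permutation, adjusted p = 0.0457), without AT 3 −0.47 (permutation, adjusted p = 0.190), and with the reference-gene scaling −0.26 (permutation, adjusted p = 0.431). The difference between the 2 tissues was not tested. Between tissues, no relation of the same gene passed the adjusted threshold, and the values varied with the setting. CIRBP in BAT against CIRBP in thyroid had r = 0.29 (permutation p = 0.353, adjusted p = 0.466) and rho = 0.28 (permutation p = 0.378, adjusted p = 0.504), with r = 0.02 without the 2 farthest lambs. Without AT 3, r for CIRBP was 0.58 (permutation, adjusted p = 0.158), and after subtracting group means 0.49 (permutation, adjusted p = 0.142). Within groups it was 0.76 in cold and 0.07 in AT lambs. For RBM3, r was 0.23 (permutation p = 0.466, adjusted p = 0.466) and rho 0.07 (permutation p = 0.833, adjusted p = 0.833), with r = −0.36 without the 2 farthest lambs.

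**Figure D5:**
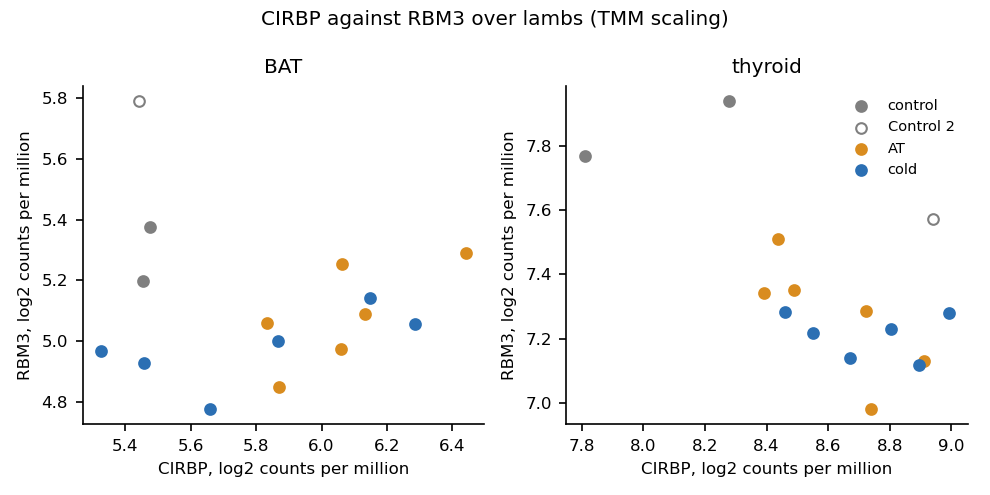
TMM-scaled log2 CPM of RBM3 (y axis) against CIRBP (x axis) in each lamb, with BAT and thyroid in separate panels, colours for cold and AT, and grey for the controls (open circle for Control 2), which were not part of r. Points of the 12 treated lambs run upwards in BAT (r = 0.67) and downwards in thyroid (r = −0.57).

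The genes whose levels over the same 12 lambs went most with CIRBP were found among 12122 named genes by the lower of Pearson's r in BAT and in thyroid, as a description without a test. They were YPEL3 (lower r 0.82), GAB1 (0.82), N4BP2L1 (0.79), EPB41L5 (0.78) and PHLDB2 (0.78). GAB1 encodes a docking protein of growth factor receptors. For RBM3 they included GEMIN4 (0.72), USP44 (0.72), ANK3 (0.68) and ACTR3B (0.66), of which GEMIN4 belongs to the SMN complex that assembles spliceosomal particles. RBM3 ranked 10500 for CIRBP and CIRBP ranked 11079 for RBM3, since their r had opposite signs in the 2 tissues. All these values share the libraries, their depth and the cell makeup of the samples.

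The genes around CIRBP and RBM3 were taken from 5 fixed lists. In cold against AT, none of their 94 genes tested in BAT and none of the 95 tested in thyroid passed the adjusted edgeR test. An unadjusted p under 0.05 was found for 10 and 5 of them, and for 12.3% and 5.4% of all genes tested in BAT and thyroid. DESeq2 called 1 heat shock gene and 1 related RNA-binding protein in BAT and none in thyroid. The nearest was HSPB8 in BAT, a small heat shock protein, with a log2 fold change of −0.92 ± 0.20 (SE, edgeR, adjusted p = 0.0615). As over all genes, few or no genes were called here.

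Regulators of both genes (22 of 24 tested) are transcription factors, splicing factors and their kinases, methyltransferases, nuclear import factors and decay factors. Against control, PRMT1, an arginine methyltransferase that modifies glycine-rich RNA-binding proteins, fell in both tissues of both groups, with log2 fold changes of −0.74 (edgeR, adjusted p = 0.0487) and −0.77 (adjusted p = 0.0151) in BAT and −1.12 (edgeR, adjusted p = 0.00768) and −0.93 (adjusted p = 0.0156) in thyroid, for cold and AT in turn. NTRK2, the receptor of brain-derived neurotrophic factor, rose in thyroid, with log2 fold changes of 1.42 (edgeR, adjusted p = 0.0343) in cold and 1.62 (edgeR, adjusted p = 0.0186) in AT lambs, from low levels of 13.9 to 37.3 and 42.6 normalized counts, and in BAT of AT lambs, with 2.06 (edgeR, adjusted p = 0.0152). The splicing factor HNRNPF fell in thyroid, with −0.59 (edgeR, adjusted p = 0.00625) in cold and −0.67 (edgeR, adjusted p = 0.00278) in AT lambs. The decay factor SMG5 fell in the thyroid of cold lambs, with −0.93 (edgeR, adjusted p = 0.0212), and HNRNPH1 in that of AT lambs, with −0.57 (edgeR, adjusted p = 0.0356). No other regulator was called in these comparisons, where the list medians were −0.27 and −0.32 in thyroid, near the −0.28 of all genes. Over all genes, 0.879% were called lower in the BAT of cold lambs, and 6.15% lower and 3.15% higher in that of AT lambs, while 2.34% and 2.23% were called higher in the thyroid of cold and AT lambs. With TMM scaling, 2 and 1 regulators were called in the thyroid of cold and AT lambs, and 0 and 3 in their BAT.

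Of the targets and partners (13 of 16 tested in BAT and 14 in thyroid), 1 was called lower in BAT in each group, 3 in the thyroid of cold and 5 in that of AT lambs. Over all genes the shares called lower were 0.879% and 6.15% in BAT and 16.9% and 18.7% in thyroid. VEGFA, the endothelial growth factor, fell in BAT, with −1.79 (edgeR, adjusted p = 0.0346) and −1.53 (adjusted p = 0.0228), and in thyroid, with −1.32 (edgeR, adjusted p = 0.00769) and −1.16 (adjusted p = 0.0125). TXN, thioredoxin, and EIF4G1, a translation initiation scaffold, fell in thyroid, with −1.42 (edgeR, adjusted p = 0.00568) and −1.41 (adjusted p = 0.00293) in cold lambs, and, with −1.34 (edgeR, adjusted p = 0.00609) and −1.33 (adjusted p = 0.00318) in AT lambs. LY96, a partner of the receptor through which extracellular CIRBP signals, fell in the thyroid of AT lambs, with −0.89 (edgeR, adjusted p = 0.0133). DYRK1B, a kinase, was the single member called higher, with 0.98 (edgeR, adjusted p = 0.0429) in the BAT of AT lambs.

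Related RNA-binding proteins (28 of 28 tested) were called lower 7 times in the thyroid of cold lambs, 11 times in that of AT lambs and 6 times in the BAT of AT lambs, and never higher, where 16.9%, 18.7% and 6.15% of all genes were called lower. HNRNPAB fell in thyroid, with −1.43 (edgeR, adjusted p = 0.00227) in cold and −1.42 (edgeR, adjusted p = 0.0018) in AT lambs, and SRSF1, a splicing factor, fell in the BAT of AT lambs, with −1.20 (edgeR, adjusted p = 0.00854). List medians were −0.31 and −0.38 in thyroid, again near −0.28, and with TMM scaling 1 and 4 were called there. Among cold shock domain genes (6 of 8 tested), which share a name but not a fold with CIRBP and RBM3, CARHSP1 fell in the thyroid of cold lambs (−0.64, edgeR, adjusted p = 0.0324). CSDC2 (−1.62, edgeR, adjusted p = 0.0185) and YBX3 (−0.77, edgeR, adjusted p = 0.0339) fell in the BAT of AT lambs.

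The counts of these 4 lists moved with single libraries. Without Control 3, no gene of theirs was called in thyroid in either group. Without AT 3, the thyroid counts in cold and AT lambs were 6 and 8 for regulators, 5 and 7 for targets and partners, and 4 and 3 for cold shock domain genes. Without Control 1 none of their genes was called in BAT, and without Control 3 a single target or partner was called there in each group.

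Heat shock response genes (25 of 26 tested), which heat induces and whose transcripts respond to temperature in the opposite sense to CIRBP and RBM3, had the most members called lower in thyroid. There, 15 fell in cold and 12 in AT lambs with list medians of −0.99 and −0.82, and none was called higher, where 16.9% and 18.7% of all genes were called lower. HSPH1 fell, with −1.73 (edgeR, adjusted p = 0.00262) and −1.55 (adjusted p = 0.00343), and HSPA1A, with −1.77 (edgeR, adjusted p = 0.0194) and −1.76 (adjusted p = 0.0174). HSPB8 (−5.69, edgeR, adjusted p = 0.0327) and BAG3 (−2.24, edgeR, adjusted p = 0.0297) fell in cold lambs. As background, both are abundant in muscle, whose markers stood at 9786 CPM in Control 1, and the part of muscle transcripts in these values was not tested. The counts depended on scaling and controls, with 6 and 3 called under TMM, 6 and 4 with all 3 controls, and 5 and 0 with both changes. They also moved with single libraries, to 20 and 20 without AT 3, 10 and 9 without Control 1, and 4 and 3 without Control 3. In BAT, 2 heat shock genes fell in cold lambs and 6 in AT lambs, where 0.879% and 6.15% of all genes were called lower, among them HSPH1 in AT lambs, with −1.33 (edgeR, adjusted p = 0.0148). None of the heat shock genes was called in BAT without Control 1 or without Control 3.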

How the data were processed

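Poly(A) RNA of 15 BAT and 15 thyroid samples was sequenced as 150-base paired-end reads. The authors deposited raw read counts per gene, and per the labels and methods used FastQC 0.11.9, Trimmomatic 0.39, STAR 2.7.7a against Oar_rambouillet_v1.0 and featureCounts of Subread 2.0.0 with multimapping reads counted. The strand setting is not given in the sources used here. Groups came from the labels. Controls 1 and 3 were identified as those used by the study by matching its normalized counts.

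Per tissue, counts were scaled by ACTB, RPL19 and HUWE1 size factors, a gene entered the tests once 10 or more libraries held 10 or more of its reads, and the 3 groups were fitted together with edgeR 4.0.16 (robust quasi-likelihood, R 4.3.3). Benjamini-Hochberg adjusted p under 0.05 was the threshold, over all tested genes. A second fit of 28 libraries compared the tissues over 17021 genes. Libraries of 1 lamb are paired by their labels (correlation of deviations from −0.00255 to 0.371, median 0.224). Replicate numbers of different treatments do not pair lambs. Exact permutation tests used log2(normalized count + 1), and correlations used 100000 permutations. DESeq2 1.42.0 was an alternative. On simulated counts with 200 changed genes, the cold against AT fit recovered 8.96% of 1.5-fold, 35.8% of 2-fold and 92.4% of 4-fold changes in BAT (14719 genes) and 4.48%, 40.3% and 90.9% in thyroid (15962 genes). False calls on the same counts came to 24 in BAT and 6 in thyroid. In BAT this was a larger share of the calls than the threshold of 0.05 aims at.

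Both members and all gene lists were chosen with earlier results of these data known, and list counts support nothing independently. Named list genes are up to 4 per list and comparison with the largest log2 fold change among those called, or up to 2 with the lowest p where none was called. The 5 genes closest to each member were chosen by the lower Pearson's r of the tissues, and 1 of those for RBM3 is not reported here. A test of the RBM3 to CIRBP ratio was planned but is not given, because both genes were chosen with results known. No sequences of the transcripts or proteins were used here. The p-values measure the spread between lambs, apart from those of the fit over both tissues. That fit took the 2 libraries of a lamb as independent, so its p-values measure the spread between libraries.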

Additional observations from a re-analysis of the deposited data

How the results depend on the processing

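The 46 results on CIRBP, RBM3, their ratio and their correlations were recomputed in 618 alternatives, and 592 were counted as unchanged. For tests this meant the same direction and side of the threshold. Most of the tests had not passed in the main setting, and these counted as unchanged whenever they again did not pass with the same sign. The count of unchanged results therefore says little on how firm a result is. For the ratio, which has no p, it meant a move of less than the pooled SD. The exact tests and ratios of cold against AT use no control, so adding Control 2 left them the same by design. Alternatives with all 3 controls together with TMM, and without AT 3 in the correlations, were chosen after seeing the data. In exact permutation tests against control, TMM scaling brought 4 differences of log2 levels past 0.05: CIRBP of AT lambs in BAT (0.60) and in thyroid (0.57), CIRBP of cold lambs in thyroid (0.69) and RBM3 of cold lambs in BAT (−0.31), each with p = 0.0357. All 3 controls did so for CIRBP of AT lambs in BAT (0.68) and RBM3 of cold lambs in BAT (−0.45), and both changes together for these (0.61 and −0.47) and for RBM3 of AT lambs in BAT (−0.37). In edgeR, CIRBP of cold lambs in thyroid reached 0.70 under TMM and median-of-ratios scaling. All 3 controls moved the log2 ratio differences to −0.98 for AT lambs in BAT, and to −0.77 for AT and −0.94 for cold lambs in thyroid, and turned the tissue difference of CIRBP in cold against control to 0.23. The BAT correlation of CIRBP with RBM3 was 0.76 under reference-gene scaling and 0.77 without the 2 farthest lambs, that in thyroid −0.69, and the RBM3 correlation between tissues turned to −0.36, and to −0.16 without AT 3. Leaving out single lambs gave −0.98 to −0.84 for RBM3 in thyroid for cold and −0.96 to −0.80 for AT against control, −0.12 to 0.031 for cold against AT (0.031 without AT 3), −0.46 to −0.32 for RBM3 between tissues in AT lambs and −1.17 to −0.99 for CIRBP between tissues in controls. With the lamb as a replicate block, the tissue differences were −1.22, −0.75 and −1.08 for CIRBP and −0.52, −0.38 and −1.07 for RBM3 in cold, AT and control lambs, and no call changed through this pairing. The causes were not tested. With 2 controls the control spread is poorly known, and leaving out either leaves 1. Each gene had at least 548 reads in every library.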
